A study of Homo sapiens with 24 samples.

Results

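The genes described here build and run the mitotic spindle: 52 genes of the kinetochore, the spindle checkpoint, the spindle motors, cytokinesis and chromosome condensation, with the kinases that start mitosis and 2 transcription factors of the same phase. They were taken by symbol, each was found on 1 row of a table of 60649 features, and all 52 passed the filter on low counts in every fit. RNA-seq read counts were measured in 24 libraries of LNCaP, an androgen-responsive line of human prostate adenocarcinoma, in 8 groups of 3 libraries. Cells of the first study carried the empty vector (EV) or a construct encoding a peptide of WDR77 (WDR77-peptide 3, P3) after transfection. In the second study they received a non-targeting control siRNA (siCtrl) or siRNAs against WDR77 (siWDR77). In all groups the medium was then made androgen-deprived, and 5 nM of R1881, a synthetic androgen, or its ethanol vehicle was given for 48 h. WDR77 is a WD-repeat partner of the arginine methyltransferase PRMT5 and a coregulator of the androgen receptor, and the series title concerns the growth of prostate cancer when the contact between the receptor and WDR77 is disrupted. Hormone or vehicle followed transfection by 2 days and all cells came from 1 line, the labels speak of biological triplicates, and the level of the P3 peptide itself was not analysed here.

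Cells enter mitosis when cyclin B and CDK1 become active, condense their chromosomes and attach each one through its kinetochores to spindle microtubules. Unattached kinetochores keep the spindle checkpoint on, which holds back CDC20 and the anaphase-promoting complex. Once the checkpoint is silent, securin and cyclin B are destroyed, separase cuts cohesin, and the central spindle directs cytokinesis. The mRNAs of these genes rise together late in the cell cycle, so their level in a dish follows the share of dividing cells as well as the transcription in each cell. In these bulk libraries fewer cells in mitosis and less RNA per cell cannot be told apart.

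WDR77 itself checked the siRNA labels. Its level in CPM, the depth-scaled read count with TMM scaling inside each study, was 41.7, 46.7 and 46.6 in the siCtrl_vehicle libraries and 11.3, 14.9 and 13.3 in siWDR77_vehicle, and 63.8, 67.3 and 66.1 in siCtrl_R1881 and 15.6, 13.4 and 13.8 in siWDR77_R1881. In study 1 it was 55.1, 58.8 and 63.6 in EV_vehicle, 59.4, 58.8 and 64.01 in EV_R1881, 56.2, 61.6 and 52.3 in P3_vehicle and 89.3, 101 and 94.7 in P3_R1881. The androgen target FKBP5 rose by 5.07 on the log2 scale with R1881 in EV cells and by 3.53 in P3 cells. Depth was 16665915 to 24260446 counts per library. Luminal prostate markers summed to 5635 to 20160 CPM, while KRT5 was at 0 in 23 of 24 libraries and COL1A2, CD3E and CDH5 were at 0 in all 24; the summed leukocyte markers reached at most 0.325 CPM, the basal ones 9.0, the fibroblast ones 27.4 and the endothelial ones 18.9.

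One library stood apart from its group and bears on every comparison of study 2. In siCtrl_vehicle S35 the 52 genes summed to 978 CPM, against 2051 and 2062 CPM in its mates S7 and S21. 51 of the 52 genes were lower in S35 than in both mates, with a median log2 ratio of -1.17, from -1.65 for SPC25 to -0.13 for BUB3. Between S7 and S21 the median log2 ratio was -0.003. S35 also had 8.41% of its counts on mitochondrially encoded genes, against 5.15% to 6.3% in the other 23 libraries, and its KLK3 level was the lowest of its group (203, 204 and 52.6 CPM in S7, S21 and S35). For 27 of the 52 genes S35 lay within or below the range of the R1881-treated siCtrl libraries, while S7 and S21 both lay above that range for 48. The part of these differences in the results was not tested, and the counts of study 2 are given with and without S35. How many of all genes were lower in S35, or within the R1881 range, is not given here. Whether S35 was low in these genes in particular is therefore not shown.

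**Figure D1:**
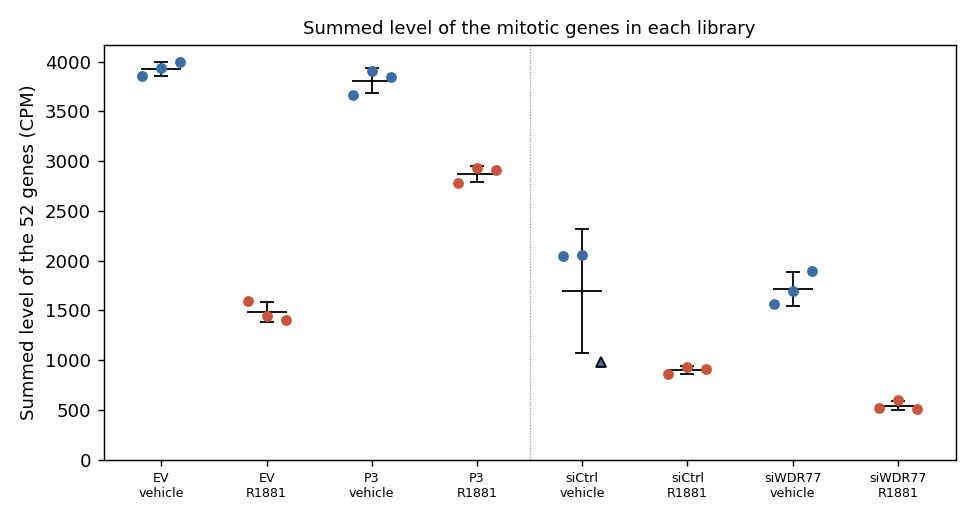
Summed level of the 52 genes in CPM (y axis) in each library (points; blue for vehicle, red for R1881) of the 8 groups (x axis), with the mean and SD of 3 libraries as a black bar; the outlined triangle is siCtrl_vehicle S35. The EV_R1881 libraries lie between 1408 and 1598 and the P3_R1881 libraries between 2784 and 2931, both below the vehicle libraries of study 1; S35 lies at 978, below its 2 mates at 2051 and 2062.

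R1881 lowered nearly the whole set in empty-vector cells, and every role took part, with role medians between -1.7 and -1.35 on the log2 scale. The summed level was 3857, 3934 and 3992 CPM in the EV_vehicle libraries and 1598, 1448 and 1408 CPM in EV_R1881. 51 of the 52 genes fell and none rose, with a median log2 fold change of -1.52, where 26.4% of all 17772 genes tested fell and their median was -0.041. For 51 genes every R1881 library lay below every vehicle library, which held for 29.6% of all genes. The gene that did not pass was NUSAP1, a microtubule-bundling protein, at -0.17 (SE 0.56, adjusted p = 0.825). Its counts were very low and its values are uncertain, as described with those of PRC1 further on.

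Among the genes that start mitosis, CDK1, the kinase that drives entry, was at 205, 213 and 209 CPM in EV_vehicle and 81.9, 75.8 and 80.9 in EV_R1881. Its log2 fold change was -1.39 (SE 0.059, adjusted p = 5.41e-23), that is 2.63-fold lower. CCNB1, its cyclin partner, went from 144, 144 and 149 to 55.7, 56.9 and 55.4 CPM, a log2 fold change of -1.38. In both genes the vehicle and the R1881 libraries were well separated. PLK1, the kinase that helps centrosomes mature and spindles form, was at 91.4, 86.4 and 92.2 and then 31.5, 24.8 and 29.7 CPM (-1.65). All 8 genes of this role fell, from -1.83 for CCNA2, the cyclin of S phase and mitotic entry, to -1.07 for CDC25B, a phosphatase that activates CDK1.

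FOXM1 and MYBL2, transcription factors that drive late cell cycle genes, fell together. FOXM1 was at 105, 97.98 and 116 CPM in EV_vehicle and 37.2, 29.2 and 32.8 in EV_R1881 (-1.69, SE 0.074, adjusted p = 1.15e-21). MYBL2 was at 113, 106 and 119 against 37.6, 34.03 and 34.9 CPM (-1.66, SE 0.067, adjusted p = 6.84e-24). No library of one condition overlapped the other in either gene.

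All 5 genes of the spindle checkpoint fell, but to different degrees. BUB1B, which encodes BUBR1, a part of the complex that inhibits CDC20, was at 76.5, 83.8 and 80.2 CPM and fell to 28.5, 23.99 and 26.7 (-1.61). MAD2L1, which encodes MAD2 of the same complex, went from 81.4, 83.2 and 82.6 to 31.99, 31.02 and 29.4 CPM (-1.42). BUB3, the WD-repeat protein that carries BUB1 and BUBR1 to kinetochores, was the exception in size, at 143, 146 and 139.8 CPM with vehicle and 112, 118 and 103 with R1881 (-0.36, SE 0.059, adjusted p = 1.61e-06). Its groups still did not overlap, but its change was the smallest of the 51.

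In the chromosomal passenger complex, which corrects faulty attachments, the gene with the largest fall of all 52 was BIRC5, which encodes survivin. BIRC5 stood at 123, 126 and 128 CPM in EV_vehicle and 31.00, 32.4 and 32.4 in EV_R1881, 3.93-fold lower (-1.98, SE 0.065, adjusted p = 7.38e-27). AURKB, the kinase of the complex, was at 20.7, 24.1 and 27.4 against 8.77, 6.82 and 9.04 CPM (-1.56), and INCENP, its scaffold, had the smallest change of the complex at -0.97. At the kinetochore, NDC80, which binds microtubules directly, went from 52.8, 53.3 and 55.5 to 19.7, 17.7 and 14.5 CPM (-1.63). CENPA, the histone that marks centromeres, fell by 1.87 on the log2 scale, and CENPE, a kinetochore motor, by 1.28.

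The spindle motors and assembly factors had a median of -1.56. TPX2, which activates AURKA on the spindle, was at 138, 143 and 138 CPM in EV_vehicle and 51.4, 46.6 and 43.96 in EV_R1881 (-1.56, SE 0.06, adjusted p = 1.67e-24). KIF11, the motor that pushes spindle poles apart, was at 54.1, 55.99 and 54.6 against 20.96, 19.4 and 15.3 CPM (-1.56). The anaphase genes had the lowest median of any role, -1.7. CDC20, the activator of the anaphase-promoting complex, went from 104, 99.2 and 102 to 33.8, 32.3 and 32.2 CPM (-1.64), UBE2C, its ubiquitin-conjugating enzyme, from 44.8, 47.3 and 46.6 to 13.99, 11.8 and 15.4 (-1.76), and PTTG1, which encodes securin, from 53.5, 54.4 and 56.9 to 17.2, 14.5 and 15.99 (-1.79). All 3 were higher in every vehicle library than in any R1881 library.

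The cytokinesis genes and the condensins fell least, with medians of -1.35 and -1.4. ECT2, the exchange factor that positions the cleavage furrow, went from 96.03, 102 and 100.2 to 45.97, 44.3 and 43.4 CPM (-1.16), and SMC4, an ATPase of condensin, from 97.3, 94.8 and 94.5 to 44.3, 38.6 and 33.4 (-1.30). TOP2A, the topoisomerase that untangles sister chromatids, fell more, from 182, 189 and 191 to 61.1, 51.6 and 50.97 CPM (-1.78, SE 0.06, adjusted p = 1.3e-26). MKI67, which encodes the proliferation marker Ki-67, was at 226, 217 and 226 against 92.99, 70.8 and 73.9 CPM (-1.49). Per kilobase of exon, the levels of 50 of the genes in EV_vehicle ran from 2.22 ± 0.12 CPM per kb for KIF18A, a motor that limits microtubule growth, to 56.9 ± 1.3 for CCNB1 (SD, n = 3), with NUSAP1 and PRC1 left out. Scaling by library size alone moved the median log2 fold change of all genes in this comparison from -0.041 to -0.21 and the share of calls that were higher from 48.5% to 30.8%, and 51 of the 52 genes were lower under it too.

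**Figure D2:**
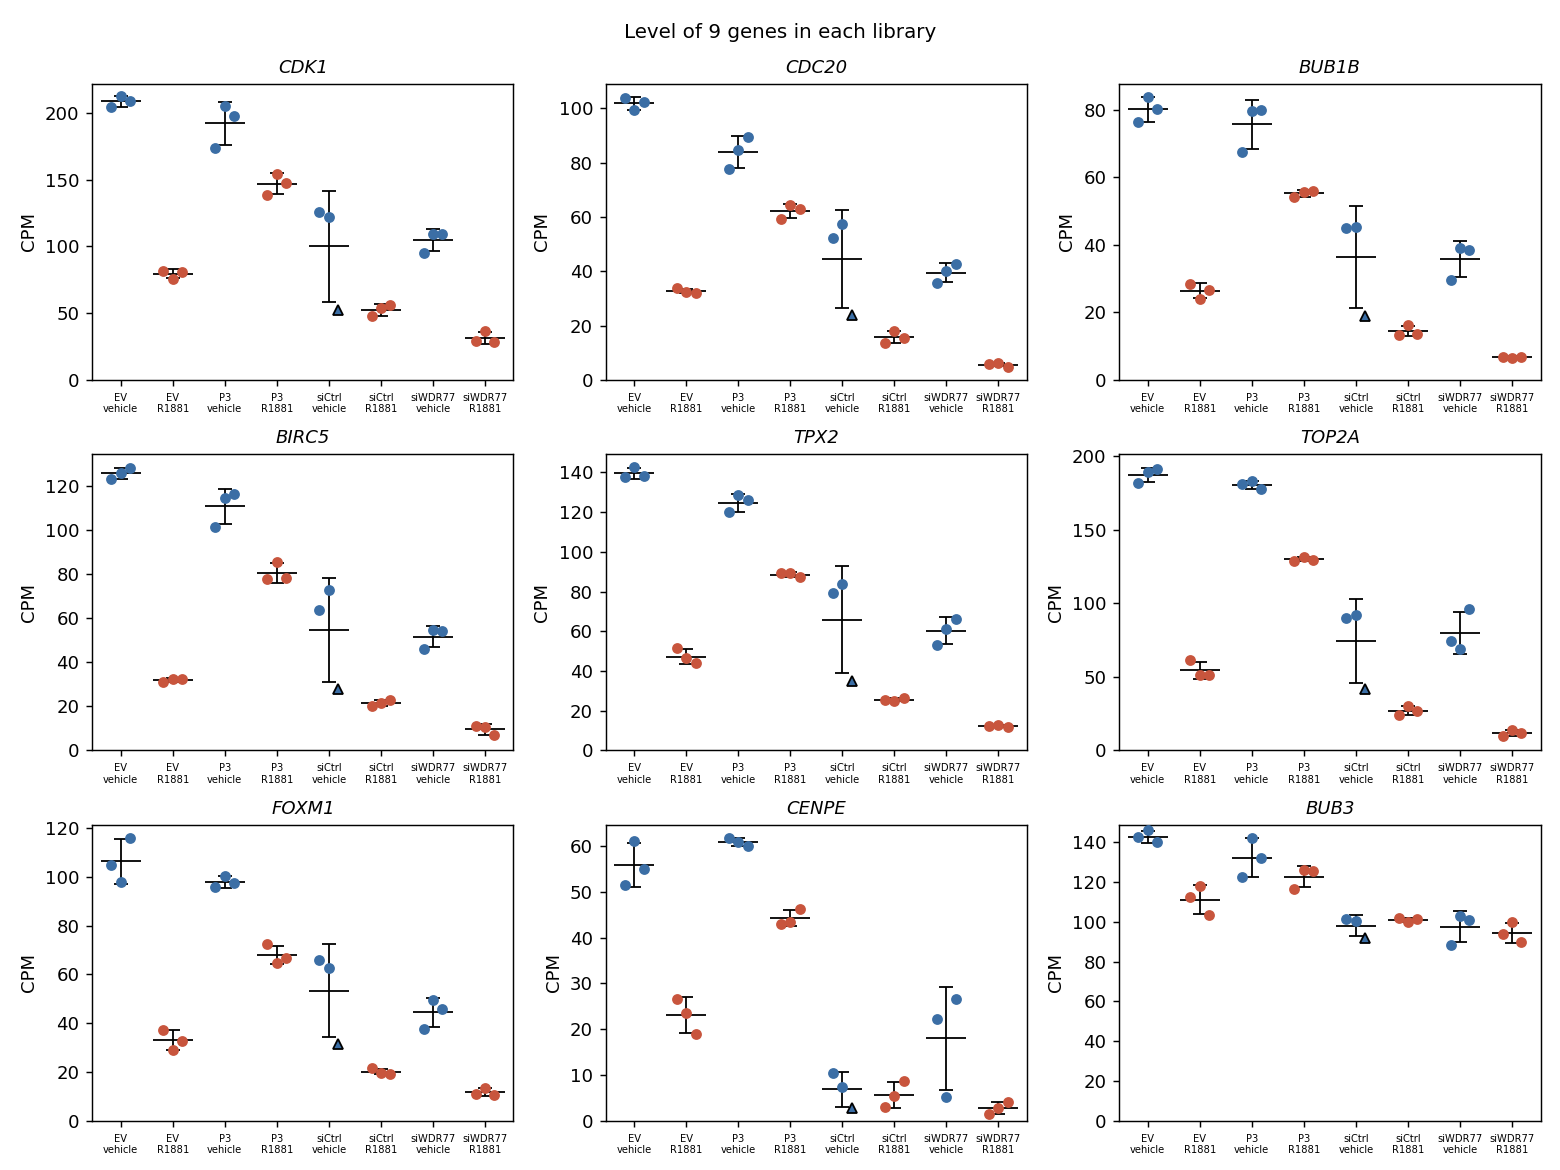
Level in CPM (y axes, from 0) of 9 genes in each library of the 8 groups (x axes; points blue for vehicle, red for R1881; triangle: siCtrl_vehicle S35; bars: mean and SD, n = 3). In 8 of the 9 panels the EV_R1881 libraries lie far below EV_vehicle with P3_R1881 in between, while BUB3 stays between 88.5 and 146 CPM in all 24 libraries, and CENPE spreads from 5.33 to 26.5 CPM within siWDR77_vehicle.

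Promoters of late cell cycle genes are known for a cell cycle homology region, TTTGAA or TTCGAA, bound by the DREAM and MuvB complexes, and for CCAAT boxes bound by NF-Y. 5 promoters of the genes are shown because these genes fell together and cover a B-type cyclin, a phosphatase that activates its kinase, PLK1, CDC20 and a checkpoint gene. The windows run from 250 bases before to 50 after the start site and are from RefSeq (GRCh38.p14), printed 5′ to 3′ on the strand of the gene. Capitals mark the homology region or a CCAAT box on either strand, so that a match on the other strand reads TTCAAA for the first, and ATTGG for the box. CCNB2 lies at chr15:59104896-59105195 (+), CDC25C at chr5:138331828-138332127 (-), PLK1 at chr16:23678639-23678938 (+), CDC20 at chr1:43358731-43359030 (+) and BUB1B at chr15:40160819-40161118 (+).
CCNB2: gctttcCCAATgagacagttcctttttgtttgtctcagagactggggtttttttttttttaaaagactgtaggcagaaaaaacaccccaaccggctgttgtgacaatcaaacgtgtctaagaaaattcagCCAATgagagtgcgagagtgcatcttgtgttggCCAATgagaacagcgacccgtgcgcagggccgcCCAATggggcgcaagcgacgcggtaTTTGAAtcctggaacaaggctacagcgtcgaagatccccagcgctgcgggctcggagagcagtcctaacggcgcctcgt
CDC25C: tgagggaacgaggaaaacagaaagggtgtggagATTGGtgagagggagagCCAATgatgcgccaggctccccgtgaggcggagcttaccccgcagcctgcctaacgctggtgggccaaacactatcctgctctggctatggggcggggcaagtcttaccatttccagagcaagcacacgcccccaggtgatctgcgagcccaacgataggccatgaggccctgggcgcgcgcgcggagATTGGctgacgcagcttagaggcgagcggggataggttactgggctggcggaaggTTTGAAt
PLK1: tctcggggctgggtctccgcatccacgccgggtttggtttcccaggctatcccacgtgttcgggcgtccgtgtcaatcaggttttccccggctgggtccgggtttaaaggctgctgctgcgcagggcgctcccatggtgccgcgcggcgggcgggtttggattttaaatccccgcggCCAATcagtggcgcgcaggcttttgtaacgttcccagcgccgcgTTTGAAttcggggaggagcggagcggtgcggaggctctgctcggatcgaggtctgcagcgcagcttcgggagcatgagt
CDC20: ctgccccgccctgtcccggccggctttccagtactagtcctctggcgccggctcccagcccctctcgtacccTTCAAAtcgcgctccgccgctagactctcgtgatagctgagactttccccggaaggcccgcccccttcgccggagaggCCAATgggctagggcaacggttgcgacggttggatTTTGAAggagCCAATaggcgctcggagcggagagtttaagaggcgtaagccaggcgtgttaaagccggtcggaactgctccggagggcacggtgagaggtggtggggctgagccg
BUB1B: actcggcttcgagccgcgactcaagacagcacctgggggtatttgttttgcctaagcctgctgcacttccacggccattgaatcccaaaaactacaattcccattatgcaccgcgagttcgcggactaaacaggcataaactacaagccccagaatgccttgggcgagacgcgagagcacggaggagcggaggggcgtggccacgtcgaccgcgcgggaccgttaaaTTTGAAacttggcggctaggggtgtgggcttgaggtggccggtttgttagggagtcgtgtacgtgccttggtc
In CCNB2 the homology region begins 29 bases before the start site and 4 CCAAT boxes stand upstream of it, the nearest at -54. PLK1 also has it at -29, with 1 CCAAT box at -73, and BUB1B has it at -23 with no CCAAT box in the window. CDC20 holds 2 matches, at -178 and -65, and 2 CCAAT boxes, at -100 and -55. The table lists 4 start sites for CDC25C, of which 2 have a match to either motif; the first of these is shown, with the homology region at 44 bases after the start.

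45 of the 52 genes have a promoter in that table; AURKA, FOXM1, BUB3, TTK, BIRC5, TPX2 and UBE2C were not matched. Taking the first listed start of each gene, 34 of 45 (75.6%) held TTTGAA or TTCGAA, against 11% of the 11361 matched genes among those tested in study 1 and 16.6% of all 27305 genes in the table. CCAAT was found in 32 of 45 (71.1%), against 36.9% of the matched genes tested, and both motifs in 26 of 45 (57.8%), against 4.75%. The motifs were frequent in other mitosis genes too, though less so. Of 110 such promoters, 43 (39.1%) held TTTGAA or TTCGAA, 50.9% CCAAT and 24.5% both. Matches on both strands were counted, also where they overlap. The median log2 fold change in EV cells was -1.49 for the 34 genes with TTTGAA or TTCGAA and -1.63 for the 11 with neither. CCNA2, CENPE and KIF2C, which have neither in the window, fell by 1.83, 1.28 and 1.69. Other forms of the homology region were not searched, so a gene with neither may still have one. A match describes letters in this window only.

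With the P3 peptide the fall was in the same direction but much smaller. The summed level was 3668, 3909 and 3847 CPM in P3_vehicle and 2784, 2931 and 2909 CPM in P3_R1881. 48 of 52 genes fell with R1881 and none rose, at a median log2 fold change of -0.43, where 7.96% of all genes fell and their median was -0.02. Those 48 genes had every R1881 library below every vehicle library, against 15.7% of all genes. BUB3 (-0.11, SE 0.058, adjusted p = 0.212), KIF18A (-0.25, SE 0.14, adjusted p = 0.22), NUSAP1 (-0.78, SE 0.47) and PRC1 (-0.12, SE 0.28), a microtubule bundler of the central spindle, were not called. A fit over all 24 libraries of both studies, S35 included, called 3 genes at a median of -0.46. Without S35 the same fit called 44 at a median of -0.43. No share of all genes called is given for either fit, so a loss of calls over all genes is not told apart.

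CDK1 was at 174, 205 and 198 CPM in P3_vehicle and 139, 155 and 148 in P3_R1881 (-0.39, SE 0.057, adjusted p = 1.05e-06). CDC20 was at 77.7, 84.6 and 89.3 against 59.2, 64.3 and 63.1 CPM (-0.43, SE 0.062, adjusted p = 5.49e-07), and BIRC5 at 101, 115 and 116 against 77.8, 85.4 and 77.95 CPM (-0.46, SE 0.06, adjusted p = 7.26e-08). In each of the 3 the lowest vehicle library was above the highest R1881 library, though by a smaller margin than in EV cells. FOXM1 was at 95.6, 100.3 and 97.5 against 72.2, 64.8 and 66.8 CPM (-0.53), TPX2 at 119.9, 129 and 126 against 89.4, 89.2 and 87.2 (-0.49), and TOP2A at 181, 183 and 178 against 129, 132 and 129 (-0.47). The largest fall that passed was that of ESPL1, which encodes separase (-0.56, SE 0.078, adjusted p = 3.59e-07), followed by BUB1, the checkpoint kinase (-0.55), and PLK1 (-0.54). The smallest was that of AURKA, the spindle pole kinase (-0.26).

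Without hormone, few of these genes passed between P3 and EV cells. 3 of 52 were lower in P3_vehicle and none higher, where 7.88% of all genes were lower, and the median log2 fold change was -0.051 beside -0.017 for all genes. The 3 were CDC20 (104, 99.2 and 102 CPM in EV_vehicle and 77.7, 84.6 and 89.3 in P3_vehicle; -0.28, SE 0.06, adjusted p = 0.00115), BIRC5 (-0.18, SE 0.058, adjusted p = 0.0261) and TPX2 (-0.16, SE 0.056, adjusted p = 0.0419). For 8 genes all P3 libraries were below all EV libraries and for 3 all were above, against 18.4% and 15.6% of all genes. MKI67 was among the 3 above, at 226, 217 and 226 CPM in EV_vehicle and 253, 240.2 and 232 in P3_vehicle, and was not called (adjusted p = 0.256). Scaling by library size alone gave 2 genes higher and 1 lower and turned the median to 0.028, and the fit over 24 libraries called none. No share of all genes called is given for either. Leaving out any 1 EV_vehicle library or P3_vehicle S5 left 1 gene lower, and leaving out P3_vehicle S19 gave 6.

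With R1881 the 2 arms separated. 50 of 52 genes were higher in P3_R1881 than in EV_R1881 and none lower, at a median log2 fold change of 1.02, where 18.1% of all genes were higher and their median was 0.025. In those 50 genes every P3_R1881 library was above every EV_R1881 library, which held for 22.5% of all genes. CENPA showed the largest difference, at 4.01, 4.39 and 4.26 CPM in EV_R1881 and 10.5, 10.3 and 11.8 in P3_R1881 (1.36, SE 0.14, adjusted p = 6.35e-11). BIRC5 was 2.52-fold higher, TOP2A 2.38-fold, KIF11 2.41-fold and CDK1 1.85-fold. BUB3 (0.14, SE 0.059, adjusted p = 0.0583) and NUSAP1 (0.51, SE 0.55) were not called. WDR77 counts were also higher in P3_R1881 than in EV_R1881 (0.64, SE 0.068, adjusted p = 2.31e-10), and the part of that in the result was not tested. Whether these counts include reads from the P3 construct, which encodes a peptide of WDR77, was not tested either.

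The test of the difference itself, the R1881 response in P3 cells minus that in EV cells, called 50 of 52 genes as less lowered in P3, where 11.5% of all genes were called in that direction. The median difference was 1.07 log2 units, against 0.017 for all genes. It was largest for BIRC5 (1.52, SE 0.088, adjusted p = 4.15e-17) and smallest among the 50 for BUB3 (0.25, SE 0.083, adjusted p = 0.0219). NUSAP1 (-0.62, SE 0.74) and PRC1 (0.93, SE 0.42) did not pass. As a description of size, the log2 response in P3 cells was 0.27 times that in EV cells in the median of 50 genes, from 0.15 for KIF18A to 0.37 for BUB1. These comparisons share the EV_vehicle, EV_R1881, P3_vehicle and P3_R1881 libraries, so they are not independent of each other. Scaling by library size alone moved the share of calls that were higher from 62.1% to 35.5% for R1881 in P3 cells, from 50.2% to 84.5% for P3 against EV in vehicle, from 48.9% to 77% with R1881 and from 50.9% to 66.7% for the difference in response, while the numbers of the 52 genes called became 49 lower, 2 higher with 1 lower, 51 higher and 50 higher.

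**Figure D3:**
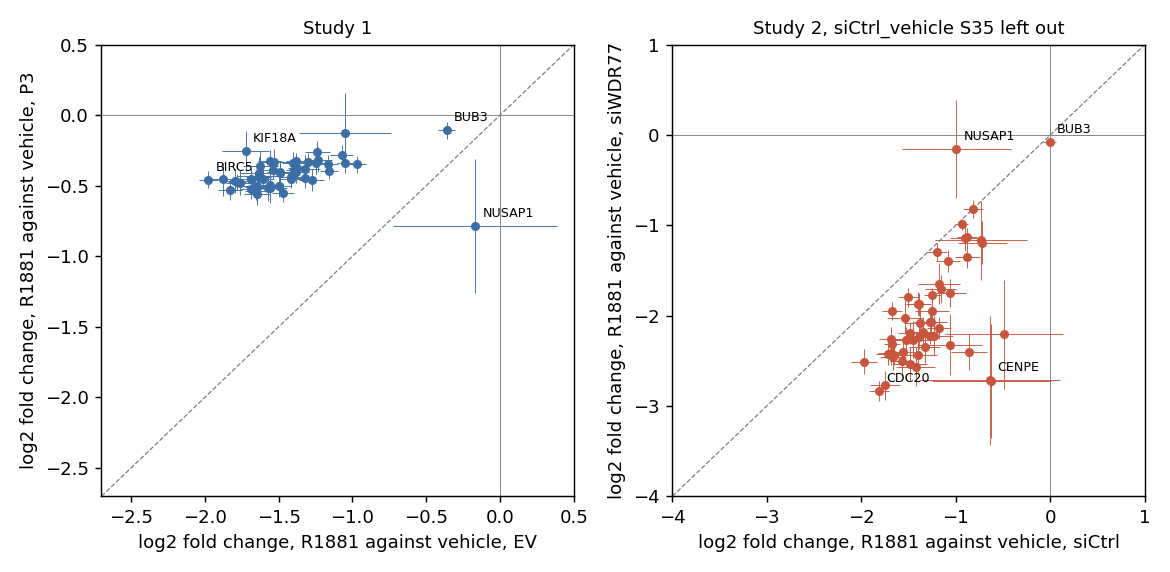
Log2 fold change of R1881 against vehicle for each of the 52 genes (points, with SE bars): left, P3 cells (y axis) against EV cells (x axis); right, siWDR77 cells (y axis) against siCtrl cells (x axis) with siCtrl_vehicle S35 left out; dashed lines mark equal responses. On the left all genes but NUSAP1 lie above the line (median -0.43 in P3 and -1.52 in EV); on the right all but NUSAP1 lie below it (median -2.19 and -1.3), INCENP by less than its SE.

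In study 2 the siCtrl cells showed the fall with R1881 again, and the number of genes that passed differed with S35, the method and the scaling. The summed level was 2051, 2062 and 978 CPM in siCtrl_vehicle (S7, S21 and S35) and 859.9, 934 and 914 CPM in siCtrl_R1881. With all libraries, 34 of 52 genes fell and none rose at a median log2 fold change of -0.99, where 25.4% of all genes fell. Without S35, 45 fell at a median of -1.3, where 23.9% of all genes fell. With S35, 25 genes had all R1881 libraries below all vehicle libraries, against 29.1% of all genes. DESeq2 called 42 genes lower with all libraries, and scaling by library size alone called 46 at a median of -1.26. No share of all genes called lower is given for either. Scaling by library size alone moved the median of all genes from -0.045 to -0.305 and the share of calls that were higher from 50.3% to 25.5%. Leaving out siCtrl_vehicle S7, siCtrl_R1881 S36 or siCtrl_R1881 S8 in place of S35 left 22, 23 and 23 genes called.

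PTTG1 had the largest fall, from 27.9, 36.5 and 14.3 CPM in siCtrl_vehicle to 7.51, 9.26 and 7.81 in siCtrl_R1881, with a log2 fold change of -1.67 (SE 0.31, adjusted p = 0.00161) and of -1.98 (SE 0.14, adjusted p = 7.32e-13) without S35. CDK1 was at 126, 122 and 52.2 CPM against 47.8, 53.7 and 55.9 CPM, so that S35 lay among the R1881 libraries; its log2 fold change was -0.93 (SE 0.30, adjusted p = 0.0292) and -1.25 (SE 0.089, adjusted p = 6.15e-11) without S35. CDC20 was at 52.3, 57.5 and 24.1 against 13.7, 18.02 and 15.3 CPM, with S35 above all R1881 libraries (-1.50 and, without S35, -1.81). FOXM1 fell by 1.40 on the log2 scale and by 1.68 without S35, MYBL2 by 1.02 and 1.33, and TOP2A by 1.46 and 1.75.

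BUB3 stood at 101, 101 and 91.98 CPM against 102, 99.8 and 101 CPM, with a log2 fold change of 0.044 (SE 0.065, adjusted p = 0.607). The groups overlapped, and scaling by library size alone turned the value to -0.22 and called it lower. The other 17 genes not called with S35 were AURKA, BUB1, MAD2L1, INCENP, CENPE, CENPF, SPC25, KIF15, NUSAP1, HMMR, ECT2, ANLN, KIF20A, KIF20B, PRC1, SMC2 and SMC4, at log2 values from -1.02 for HMMR to -0.25 for KIF20B. Without S35, MAD2L1 (-1.06, SE 0.17, adjusted p = 0.00015), ECT2 (-0.88), SMC4 (-0.91), AURKA, BUB1, INCENP, SPC25, KIF15, HMMR, ANLN and KIF20A passed, and CENPE, CENPF, KIF20B, SMC2, BUB3, NUSAP1 and PRC1 did not.

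After WDR77 knockdown R1881 lowered the set again, with the lowest median of the 4 responses; the test of that difference follows further on. The summed level was 1562, 1696 and 1899 CPM in siWDR77_vehicle and 521, 597 and 513 CPM in siWDR77_R1881. 50 of 52 genes fell and none rose at a median log2 fold change of -2.16, where 25.5% of all genes fell. 49 had all R1881 libraries below all vehicle libraries, against 29.3% of all genes. BUB3 (-0.046, SE 0.065, adjusted p = 0.585) and NUSAP1 (-0.12, SE 0.52) were not called. Leaving S35 out of the fit left the count at 50, where 27.1% of all genes fell, and the median at -2.19. Scaling by library size alone called 51 lower at a median of -2.46 and moved the share of calls that were higher from 52% to 25.5%.

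CDC20 fell most, from 35.7, 39.97 and 42.8 CPM in siWDR77_vehicle to 5.83, 6.21 and 4.89 in siWDR77_R1881, 6.997-fold (-2.81, SE 0.33, adjusted p = 8.97e-05). TOP2A was at 74.5, 69.1 and 96.1 against 9.80, 14.1 and 11.98 CPM (-2.75, SE 0.33, adjusted p = 0.000108), and BUB1B at 29.5, 39.2 and 38.5 against 6.93, 6.53 and 6.78 CPM (-2.41, SE 0.33, adjusted p = 0.000242). These 3 genes had no overlap between the conditions. MKI67 went from 82.98, 87.2 and 94.1 to 17.01, 22.9 and 17.7 CPM (-2.20), CDK1 from 94.9, 109 and 109 to 28.96, 36.3 and 28.2 (-1.75), and BIRC5 from 46.1, 54.8 and 53.9 to 11.2, 10.6 and 6.83 (-2.44). The smallest falls that passed were those of INCENP (-0.79, SE 0.24, adjusted p = 0.0213) and NCAPD2 (-0.96).

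**Figure D4:**
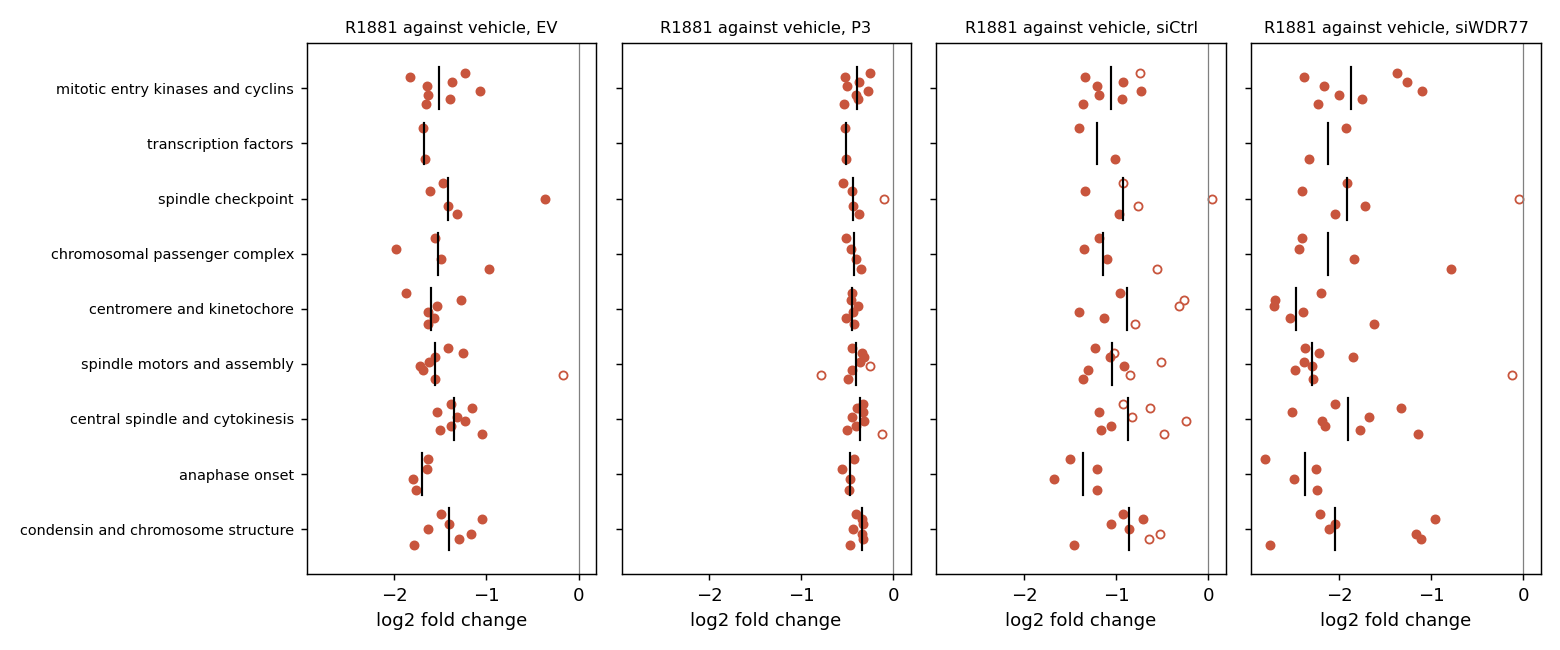
Log2 fold change of R1881 against vehicle (x axes) of each gene (points; filled where the adjusted p is under 0.05, open where not), grouped by role (rows), in EV, P3, siCtrl and siWDR77 cells with all libraries; black ticks are the medians of the roles. Medians by role lie between -1.7 and -1.35 in EV cells and between -0.52 and -0.34 in P3 cells, and BUB3 is the open point near 0 in the checkpoint row of the P3, siCtrl and siWDR77 panels.

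Without hormone no difference between knockdown and control passed when all libraries were used. edgeR called 0 of 52 genes, none at an unadjusted p under 0.05 either, and DESeq2 called 0; 0.844% of all genes were lower and 0.682% higher. The median log2 fold change was 0.011, and the groups overlapped in all 52 genes. Without S35, 9 genes were lower at a median of -0.24, where 1.51% of all genes were lower. They were FOXM1 (-0.53, SE 0.10, adjusted p = 0.00303), INCENP (-0.48), CDCA8, a passenger complex subunit (-0.48), TPX2 (-0.43), KIF4A, a chromokinesin (-0.39), CDC20 (-0.47), ESPL1 (-0.58), NCAPD2, a condensin subunit (-0.33), and MKI67 (-0.42). FOXM1 was at 66.1, 62.6 and 31.5 CPM in siCtrl_vehicle S7, S21 and S35 and 37.7, 49.6 and 45.97 in siWDR77_vehicle, so S35 lay below and its mates above all knockdown libraries. MKI67, at 119, 117 and 45.2 against 82.98, 87.2 and 94.1 CPM, had the same order.

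With R1881 the knockdown libraries held less of nearly every gene. The summed level was 859.9, 934 and 914 CPM in siCtrl_R1881 and 521, 597 and 513 CPM in siWDR77_R1881, and for 46 genes all siWDR77 libraries were below all siCtrl libraries, against 12.1% of all genes. The median log2 fold change was -0.97, beside 0.025 for all genes. S35 is in neither group but enters the estimate of the spread, and with it 8 genes were called lower and none higher, where 3.31% of all genes were lower. Without S35 43 were lower, where 6% of all genes were, and the median was -0.98. DESeq2 called 28 with all libraries, and the fit over all 24 libraries called 25, with no share of all genes given for either. Leaving out any 1 of siCtrl_R1881 S8, S22 and S36 or siWDR77_R1881 S10 and S38 left 3 genes called, and leaving out siWDR77_vehicle S23 left 5.

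The 8 genes called with all libraries were MYBL2, AURKB, CENPA, CDC25B, KIF2C, KIF14, KIF15 and CDC20. MYBL2 differed most, at 23.5, 28.4 and 23.3 CPM in siCtrl_R1881 and 9.32, 9.45 and 6.58 in siWDR77_R1881 (-1.57, SE 0.36, adjusted p = 0.0386; without S35 -1.59, adjusted p = 0.000184). CDC20 was at 13.7, 18.02 and 15.3 against 5.83, 6.21 and 4.89 CPM (-1.48, SE 0.35, adjusted p = 0.0406), and AURKB at 3.69, 4.77 and 5.46 against 1.24, 2.44 and 1.53 CPM (-1.43, SE 0.29, adjusted p = 0.00509). These groups did not overlap. CDK1, at 47.8, 53.7 and 55.9 against 28.96, 36.3 and 28.2 CPM, had no overlap either and passed without S35 but not with it (-0.75, SE 0.31, adjusted p = 0.213; without S35 adjusted p = 3.31e-06). The same was seen for MKI67 (48.1, 51.6 and 47.98 against 17.01, 22.9 and 17.7 CPM; adjusted p = 0.057 and 2.37e-11). KIF2C, a microtubule depolymerase (-1.18), KIF14, a cytokinesis motor (-1.38), KIF15, a spindle motor (-1.54), CENPA (-1.30) and CDC25B (-0.53) were the remaining called genes. Without S35 the genes not called were BUB3, CENPE, CENPF, KIF18A, NUSAP1, KIF20B, PRC1, SMC2 and SMC4.

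The difference in response, siWDR77 minus siCtrl, was called by edgeR for 0 of 52 genes and for 0% of all genes with all libraries. 21 genes had an unadjusted p under 0.05, all toward a larger fall after knockdown, and DESeq2 called 0 of the 52, with 35 at an unadjusted p under 0.05. The share of all genes at that unadjusted level is not given here, so these counts have no background to be set against. Without a filter on low counts edgeR called 7, with no share of all genes given. The median difference was -0.99 log2 units, and -0.7 without S35. Without S35 8 genes were called, where 0.157% of all genes were called in that direction. They were CDC20 (-1.03, SE 0.16, adjusted p = 0.00154), MKI67 (-0.96, SE 0.12, adjusted p = 0.000155), BUB1B (-0.78), TPX2 (-0.64), KIF2C (-0.93), KIF15 (-1.55), NCAPH, a condensin subunit (-0.96), and ANLN, an actin-binding protein of the cleavage furrow (-0.79). In that fit the value furthest from 0 was that of CENPF at -2.10, which was not called (adjusted p = 0.633). With all libraries those of CENPE at -2.43 and CENPF at -2.38 were furthest from 0, and neither was called (adjusted p = 0.603 and 0.547).

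The control arms of the studies did not start from the same level. 51 of 52 genes were lower in siCtrl_vehicle than in EV_vehicle and none higher, at a median log2 fold change of -1.2, where 18.9% of all genes were lower. For 51 genes all siCtrl_vehicle libraries were below all EV_vehicle libraries, against 24.6% of all genes. Without S35 it was 50 genes at -0.84, where 13.2% of all genes were lower. TPX2 was at 138, 143 and 138 CPM in EV_vehicle and 79.2, 83.6 and 35.02 in siCtrl_vehicle (scaled within each study; on the common scaling -1.05, SE 0.20, adjusted p = 0.00044 and, without S35, -0.71). With R1881, 29 genes were lower in siCtrl than in EV and none higher, where 8.34% of all genes were lower, at a median of -0.7, and for 48 genes all siCtrl libraries were below all EV libraries, against 15.9% of all genes. Without S35 46 were lower, where 9.58% of all genes were, and DESeq2 called 40 with all libraries, with no share of all genes given. Leaving out siCtrl_R1881 S8, S36 or S22 gave 8, 12 and 19, and leaving out EV_R1881 S2, S16 or S30 gave 10, 17 and 17. The study, the transfected molecule and any batch cannot be told apart here. The response in siCtrl minus that in EV was called for 2 genes, where 10.7% of all genes were called in that direction: CENPA (0.94, SE 0.27, adjusted p = 0.0107) and BUB3 (0.42, SE 0.091, adjusted p = 0.000855), and the median of the set was 0.46. Without S35 BUB3, KIF15 and NCAPH were called, where 6.65% of all genes were, and the median was 0.13. Leaving out siCtrl_vehicle S7 or S21 gave 4 genes. Scaling by library size alone moved the share of calls that were higher from 45.3% to 59.7% for siCtrl against EV in vehicle and from 64% to 36.7% for the difference in response, with 51 lower and 2 higher among the 52.

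On the scaling over all 24 libraries, S35 included, the group means of most genes shared some places in their order. Over 50 genes, with NUSAP1 and PRC1 left out, siWDR77_R1881 was the lowest group in 50, siCtrl_R1881 the second lowest in 49 and P3_R1881 the third highest in 50. EV_vehicle or P3_vehicle was the highest in 50, EV_vehicle in 37. The places 4 to 6 were shared in 49 genes by siCtrl_vehicle, siWDR77_vehicle and EV_R1881, which changed places from gene to gene: siCtrl_vehicle was the fourth highest in 24 genes, siWDR77_vehicle in 19 and EV_R1881 in 7. In all there were 9 different orders, and the commonest was that of 16 genes. The order of the groups over all genes is not given here, and these ranks rest on the same libraries as the comparisons above.

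3 genes with long transcripts and a GC content below the median of the set, chosen after their values were seen, varied between the libraries of study 2 in another way than TPX2. CENPE, the kinetochore motor, was at 22.2, 5.33 and 26.5 CPM in siWDR77_vehicle S9, S23 and S37, so that S23 was far below its mates. CENPF, a kinetochore protein of late G2, showed the same order at 61.8, 19.1 and 79.3 CPM, and KIF20B, a cytokinesis motor, at 16.03, 6.30 and 20.95 CPM. TPX2, with 46.8% GC, was at 52.9, 61.4 and 66.4 CPM in those libraries. Genes of low GC content did not all share the low value of S23. KIF11, with 4860 transcript bases and 38.3% GC, was at 20.8, 21.3 and 25.8 CPM there. KIF18A, with 37% GC, was at 4.62, 2.29 and 5.23 CPM. How many genes had either pattern is not given here. The ratio of CENPE to TPX2 was 0.132, 0.088 and 0.081 in siCtrl_vehicle, 0.373 to 0.53 in study 1, and 0.42, 0.087 and 0.399 in siWDR77_vehicle. With R1881 it was 0.117, 0.219 and 0.329 in siCtrl_R1881 and 0.116, 0.224 and 0.338 in siWDR77_R1881. Their transcripts have 35.3% GC (CENPE), 40.8% (CENPF) and 34.2% (KIF20B), where the median of 50 genes was 42.9% and the highest was 60.5% for MYBL2.

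Across 50 genes, the log2 fold change of siWDR77 against siCtrl in vehicle had a Pearson r of -0.6 (Spearman rho -0.7) with GC content, and siCtrl against EV in vehicle 0.47 (rho 0.61). R1881 against vehicle in EV cells had -0.16 (rho -0.3) and in P3 cells -0.33 (rho -0.41). Without S35 the first of these values was -0.58 (rho -0.64). The deviation of single libraries from their group mean had r up to 0.54 (siWDR77_R1881 S10) and down to -0.57 (siWDR77_vehicle S37), with 0.53 in siWDR77_vehicle S23. In study 1 it was 0.52 in EV_R1881 S30 and -0.51 in EV_vehicle S15. These are descriptions across genes of the same libraries, chosen after the values were seen, and genes are not independent replicates. The part of GC content in the results was not tested.

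**Figure D5:**
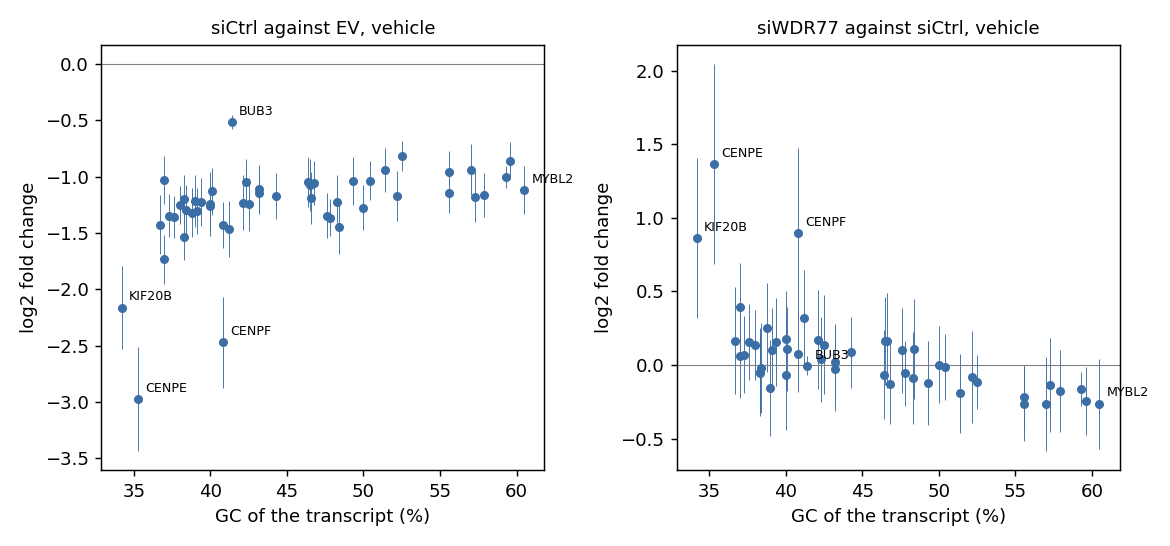
Log2 fold change (y axes, with SE) of 50 of the genes against the GC content of the transcript in percent (x axes), for siCtrl against EV (left) and siWDR77 against siCtrl (right), both in vehicle with all libraries. CENPE (35.3% GC) lies lowest on the left at -2.98 and highest on the right at 1.37, and MYBL2 (60.5% GC) at -1.12 and -0.26.

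2 of the genes were hardly counted. NUSAP1 was at 0.21 to 1.27 CPM and PRC1 at 0.21 to 2.41 CPM in all 24 libraries, while the highest library of every other gene was at 10.9 CPM or more. In GENCODE 29 (GRCh38), 62.2% of the exon bases of NUSAP1 (chr15:41332694-41381050, +) and 57.6% of those of PRC1 (chr15:90966038-90995629, -) are shared with another gene on the same strand, while the same share was 10.2% for BUB1B, 6.96% for CENPA and 0 for the rest. The values of both genes are uncertain, since the counting rule for reads in shared exons is not stated in the labels or notes.

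Other mitosis genes show how far the pattern reached. Of 131 further genes of the kinetochore, spindle, cohesin and condensin, the anaphase-promoting complex, mitotic kinases and the DREAM and MuvB complexes, 95 fell and 10 rose with R1881 in EV cells (median -0.78), where 26.4% of all genes fell and 24.9% rose. Of the same genes 64 fell and 3 rose in P3 cells (median -0.24), where 7.96% and 13% of all genes did. In siCtrl cells 63 fell and 15 rose, where 25.4% of all genes fell and 25.7% rose, and without S35 80 fell and 14 rose, where 23.9% and 24.1% of all genes did. In siWDR77 cells 79 fell and 19 rose, where 25.5% of all genes fell and 27.7% rose, and without S35 85 fell and 18 rose, where 27.1% and 26.4% did. The further mitotic kinases and regulators fell in 18 of 19 cases in EV cells. Of 17 genes of the anaphase-promoting complex and its regulators 6 fell and 4 rose, which is 35.3% and 23.5%, where 26.4% of all genes fell and 24.9% rose. HASPIN, a histone H3 kinase of mitosis (-1.91), and PBK, a mitotic kinase (-1.86), fell most in EV cells. MAD1L1, described further on, was among the 10 genes that rose in EV cells. The largest of those rises was that of CENPN, which binds the CENPA nucleosome (3.43, SE 0.057, adjusted p = 3.95e-37). NCAPD3, a subunit of condensin II, came next after CENPN (2.77, SE 0.053, adjusted p = 3.99e-35). CENPN and NCAPD3 rose with R1881 in P3 (1.99 and 2.12), siCtrl (4.73 and 4.46) and siWDR77 cells (5.11 and 5.20) too. Without S35 CENPN had 4.53 and NCAPD3 4.26 in siCtrl cells, and 5.08 and 5.17 in siWDR77 cells. The falls furthest from 0 elsewhere were SGO1, the protector of centromeric cohesin (-0.68), and NEK2, a centrosomal kinase (-0.59), in P3 cells, NEK2 (-1.55) and PBK (-1.37) in siCtrl cells, and KNL1, a kinetochore scaffold (-2.86), and ASPM, a spindle pole protein (-2.77), in siWDR77 cells. Without S35 the same genes were furthest from 0, NEK2 (-1.79) and PBK (-1.71) in siCtrl cells and KNL1 (-2.89) and ASPM (-2.80) in siWDR77 cells.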

How the data were processed

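Per the labels' protocols, Trizol and column-purified RNA went into poly(A) libraries. The deposited table holds raw read counts per gene, made with bcl2fastq 2.20, STAR 2.7.9a and featureCounts of Subread 1.6.4 on GRCh38.p7, per the submitters' processing notes. For the strand setting, the annotation release and the treatment of multimapping reads, nothing is given in the sources used here. 3 P3_R1881 columns carry the extra word siRNA, which the sample titles do not have, and were matched to the labels by sample number. Libraries held 16665915 to 24260446 counts.

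Here edgeR 4.0.16 (R 4.3.3, limma 3.58.1) was run with TMM scaling, its filter on low counts by group, and a robust quasi-likelihood test on group means, over the 12 libraries of each study (17772 and 17893 genes) and over 24 (18999 genes) for siCtrl against EV. Calls were made at an adjusted p under 0.05, by Benjamini and Hochberg's method over all genes tested. Adjusted p-values in the text are from this test. It judges each difference against the spread between the deposited triplicates, estimated over all groups in the fit. Values in brackets after a gene are log2 fold changes. The genes and lists were chosen with earlier results of these data known. Every member could be named; values per library are given for genes taken by role from textbook knowledge, for the extremes and for those not called where most were. Of other mitosis genes the 2 highest and 2 lowest in each R1881 comparison are named. Alternatives were DESeq2 1.42.0, other scalings, no filter, a replicate block, 1 library left out, a fit over 24 libraries and, added after seeing the data, a fit over 23 without siCtrl_vehicle S35. Shares of all genes called are not given beside the counts of these alternatives. The exception is the fits of study 2 and of siCtrl against EV without S35. The scripts were tested on simulated counts. Positions, lengths and GC content came from GENCODE 29, and promoters from RefSeq.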

Additional observations from a re-analysis of the deposited data

Results flagged for a closer look

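These genes are listed because the response to R1881 differed between P3 and EV cells by the test of the difference itself, edgeR's interaction term: 50 of the 52 genes passed, where 11.5% of all genes did in that direction. The differences are in log2 units, P3 minus EV, and positive values mean a smaller fall in P3. Among the entry kinases and cyclins they were 1.008 for CDK1, 1.006 for CCNB1 and 1.116 for PLK1. Among the anaphase genes they were 1.205 for CDC20, 1.281 for UBE2C and 1.325 for PTTG1. The checkpoint genes gave 1.153 for BUB1B, 0.253 for BUB3 and 0.9777 for MAD2L1, and the passenger complex 1.042 for AURKB and 1.517 for BIRC5. At the kinetochore CENPE had 0.8154 and NDC80 had 1.199. The spindle motor KIF11 had 1.237 and the assembly factor TPX2 1.066. ECT2 of cytokinesis had 0.7619, and TOP2A, SMC4 and MKI67 had 1.306, 0.9678 and 1.084. The transcription factors gave 1.159 for FOXM1 and 1.152 for MYBL2.

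The same test between siCtrl and EV cells passed for 2 of the 52 genes, BUB3 at 0.4228 log2 units and CENPA, where 10.7% of all genes passed in that direction. BUB3 fell in EV cells and was not called in siCtrl cells. The study, the transfected molecule and any batch cannot be told apart in this contrast.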

How the results depend on the processing

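With DESeq2's size factors in edgeR, the counts of the 52 genes called were the same as with TMM in all 13 comparisons. The fit over 24 libraries called 3 genes lower for R1881 in P3 cells, 0 for P3 against EV in vehicle and 25 for siWDR77 against siCtrl with R1881. The fit over 23 libraries without siCtrl_vehicle S35, chosen after seeing the data, called 1 lower for P3 against EV in vehicle, and 15, 45 and 17 lower for siWDR77 against siCtrl in vehicle, with R1881 and for their difference in response. DESeq2 called 28 for siWDR77 against siCtrl with R1881. Without the filter 7 were called for the difference in response of siWDR77 and siCtrl. Library size alone called 2 higher and 1 lower for P3 against EV in vehicle, and BUB3 with R1881 in siCtrl cells turned to -0.2184 and passed edgeR's threshold. The cause of these changes was not tested. In this paragraph no share of all genes called stands beside the counts, so a setting that called more of all genes is not told apart. A replicate block by order of sample number called 6 lower for P3 against EV in vehicle. Samples of the same order correlated at -0.0264 to 0.118 in study 1 and -0.0623 to 0.126 in study 2. Those of different order correlated at -0.0949 to 0.038 and -0.149 to 0.122. The medians were 0.014 and 0.027 for the same order and -0.014 and -0.018 for different orders. The numbers were not taken as pairs, and whether they mark pairs was not tested. With the block the other comparisons stayed within 1.5 times of their counts. Leaving out 1 library at a time gave 0 to 1 higher and 1 to 6 lower for P3 against EV in vehicle, 22 to 45 lower for R1881 in siCtrl cells, 0 to 9, 3 to 43 and 0 to 8 lower for siWDR77 against siCtrl in vehicle, with R1881 and for the difference in response, 8 to 46 lower for siCtrl against EV with R1881, and 2 to 4 higher for the difference in response of siCtrl and EV. For R1881 in EV, P3 and siWDR77 cells it gave 51, 46 to 48 and 47 to 50 lower, and for P3 against EV with R1881 and the difference in response of P3 and EV 49 to 51 and 49 to 50 higher. NUSAP1 and PRC1 rest on few counts.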

Other observations

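Genes of DNA replication, which act before mitosis, moved in the same direction as the spindle genes. All 36 on the list fell with R1881 in EV cells at a median log2 fold change of -1.31 (edgeR, adjusted over all genes), where 26.4% of all genes fell, and 31 fell in P3 cells at -0.36, where 7.96% did. In siCtrl cells 16 fell at -0.53, where 25.4% of all genes did, and without siCtrl_vehicle S35 33 fell at -0.78, where 23.9% did. In siWDR77 cells 30 fell at -0.97, where 25.5% of all genes did, and without S35 34 fell at -1.002, where 27.1% did. With R1881, 35 of the 36 were higher in P3 than in EV cells, where 18.1% of all genes were. TK1, which encodes thymidine kinase of S phase, had the lowest value in EV cells at -2.06 and in siWDR77 cells at -2.44.

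MAD1L1, which encodes the checkpoint protein MAD1 and was chosen after its values were seen, did not move with the checkpoint genes above. It was higher in P3 than in EV cells with vehicle by 3.01 on the log2 scale (SE 0.61, edgeR adjusted p = 0.000636). In EV cells it rose with R1881 by 1.69 (SE 0.7, adjusted p = 0.042), and in P3 cells its value was -0.52 (SE 0.47, adjusted p = 0.511). With R1881, P3 against EV gave 0.80 (SE 0.55, adjusted p = 0.264), which was not called. It was also higher in siCtrl than in EV cells with vehicle, by 1.90 (SE 0.73, adjusted p = 0.0402), and without S35 the value was 1.68 (SE 0.80, adjusted p = 0.119). The called values of 3.01, 1.69 and 1.90 all rest on the same EV_vehicle libraries. Counts of MAD1L1 are not given here, and its SE of 0.61 was the largest among the other mitosis genes for P3 against EV in vehicle.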
